A study of Mus musculus with 8 samples.

Results

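Fibroblasts of the adult heart and other organs are recognised by proteins on their surface and in their matrix, and 10 such genes are described here: Pdgfra, Pdgfrb, Ddr2, Thy1, Dpep1, Pi16, Dpt, Ly6a, Ly6c1 and Cd34. They were chosen by symbol, as markers of fibroblast identity and of quiescent or adventitial fibroblasts, and each matched 1 Ensembl identifier among the 54532 in the deposited table. The table came from RNA sequencing of cardiac fibroblasts of the mouse, which make the matrix of the heart, on day 7. Cells that overexpressed EphrinB2 (called EphrinB2 cells), the Efnb2 product, which sits in the membrane and binds Eph receptors on other cells, were kept in osteogenic differentiation medium or in complete medium, and so were cells with a control vector (called vector cells). This gave 4 groups with 2 libraries each, and the vector, the number of animals and the composition of both media are not given in the sources. Whether a group's libraries are separate cultures is not stated, so the p-values reflect the spread among these 8 libraries alone, and that spread may be technical.

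As background, the PDGF receptors alpha and beta are tyrosine kinases that carry growth signals from secreted PDGF dimers into fibroblasts and mural cells, and Ddr2 is a tyrosine kinase activated by collagen. Thy1, Ly6a (Sca-1) and Ly6c1 are small glycoproteins held on the membrane by a lipid anchor, Dpep1 is a lipid-anchored dipeptidase, and Cd34 is a sialomucin of progenitor, endothelial and stromal cells. Pi16, a member of the CAP protein family, and Dpt, which encodes the matrix protein dermatopontin, mark fibroblasts that resemble those around vessels and in other resting connective tissue. Ly6a and Ly6c1 are also used as markers outside the fibroblast lineage.

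For 7 of the 10 members the RefSeq table on GRCm38.p6 held a promoter window, with 8 windows in all. For Ly6c1 the window of highest coordinate is printed. The 250 bases before the start are printed for Dpep1 and Ly6c1, which rose together in osteogenic medium and had a window, 5' to 3' on the gene's strand. Capitals mark a TATAAA motif. The Dpep1 window is chr8:123185985-123186234 (plus strand) and the Ly6c1 window chr15:75048838-75049087 (minus strand).
Dpep1: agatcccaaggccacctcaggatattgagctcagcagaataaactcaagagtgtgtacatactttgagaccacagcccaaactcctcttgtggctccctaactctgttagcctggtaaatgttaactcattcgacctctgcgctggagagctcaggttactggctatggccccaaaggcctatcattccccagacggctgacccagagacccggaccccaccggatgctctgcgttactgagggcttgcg
Ly6c1: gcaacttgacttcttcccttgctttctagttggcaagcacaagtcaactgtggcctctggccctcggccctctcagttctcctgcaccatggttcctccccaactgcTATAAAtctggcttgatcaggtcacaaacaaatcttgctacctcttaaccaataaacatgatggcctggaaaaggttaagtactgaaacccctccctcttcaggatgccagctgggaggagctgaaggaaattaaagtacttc
Exact matches were searched on both strands for ACANNNTGT (core of the steroid receptor palindrome), the interferon element, TGANTCA (AP-1) and the TATA box TATAAA. Among 32851 promoters of the same length, 5.84%, 2.98%, 6.75% and 12.4% held these motifs in that order. The Dpep1 window held none, and the printed Ly6c1 window held TATAAA 143 bases before the start. Ddr2 held ACANNNTGT at 64 and TATAAA, on the opposite strand, at 185 bases before its start, and 5 of the 7 genes, Dpep1 among them, held none. A match, or its absence in these windows, is a description of the letters only.

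Places below are on GRCm38 from GENCODE M21, and all 10 genes are protein coding. Pdgfra (ENSMUSG00000029231) lies on chromosome 5 at 75152292 to 75198215, plus strand, and Pdgfrb (ENSMUSG00000024620) on chromosome 18 at 61045150 to 61085061, plus strand. Ddr2 (ENSMUSG00000026674) lies on chromosome 1 at 169972307 to 170110762, minus strand, Dpt (ENSMUSG00000026574) at 164796644 to 164824266 and Cd34 (ENSMUSG00000016494) at 194938819 to 194961279, the last pair on the plus strand of the same chromosome. Thy1 (ENSMUSG00000032011) lies on chromosome 9 at 44043384 to 44048579, Dpep1 (ENSMUSG00000019278) on chromosome 8 at 123186242 to 123201812 and Pi16 (ENSMUSG00000024011) on chromosome 17 at 29317680 to 29330593, all on the plus strand. Ly6a (ENSMUSG00000075602) and Ly6c1 (ENSMUSG00000079018) are neighbours on the minus strand of chromosome 15, at 74994877 to 74998031 and 75044018 to 75048830. The strand setting of the authors' counting is not given, so reads of antisense genes cannot be told apart from those of Pdgfra, Ddr2, Pi16 and Cd34, whose exons overlap 2, 1, 1 and 1 annotated genes on the opposite strand. Of all stretches of 50 bases in their transcripts, 32.8% in Ly6c1 and 19% in Ly6a also occur in another gene, which makes the values of this pair less certain, against at most 4.93% in any other member.

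All 10 members were detected in every library. Values are FPKM, fragments scaled to the exon length of the gene and to the counted fragments of the library. Levels are set side by side between genes on this scale. The libraries of each EphrinB2 group differed along gene length, as given below, which limits this. Over all 8 libraries the mean level was highest for Dpep1 at 498 FPKM, followed by Dpt at 150, Pdgfrb at 125 and Ly6a at 123 FPKM. Pdgfra averaged 56.5, Ddr2 52.6 and Thy1 14.4 FPKM. Cd34 at 6.28, Ly6c1 at 5.61 and Pi16 at 0.684 FPKM were the lowest. The order depended on the medium. In vector cells in osteogenic medium Dpep1 led with a mean of 787 FPKM, followed by Ly6a at 214 and Dpt at 162 FPKM. In vector cells in complete medium Pdgfrb led with 146 FPKM, followed by Dpt at 141 and Dpep1 at 116 FPKM. The highest library exceeded the lowest by 29.3 times for Ly6a, 24.1 times for Ly6c1 and 9.96 times for Dpep1, against 1.94 times for Cd34, 1.78 times for Pdgfra and 1.5 times for Thy1.

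**Figure D1:**
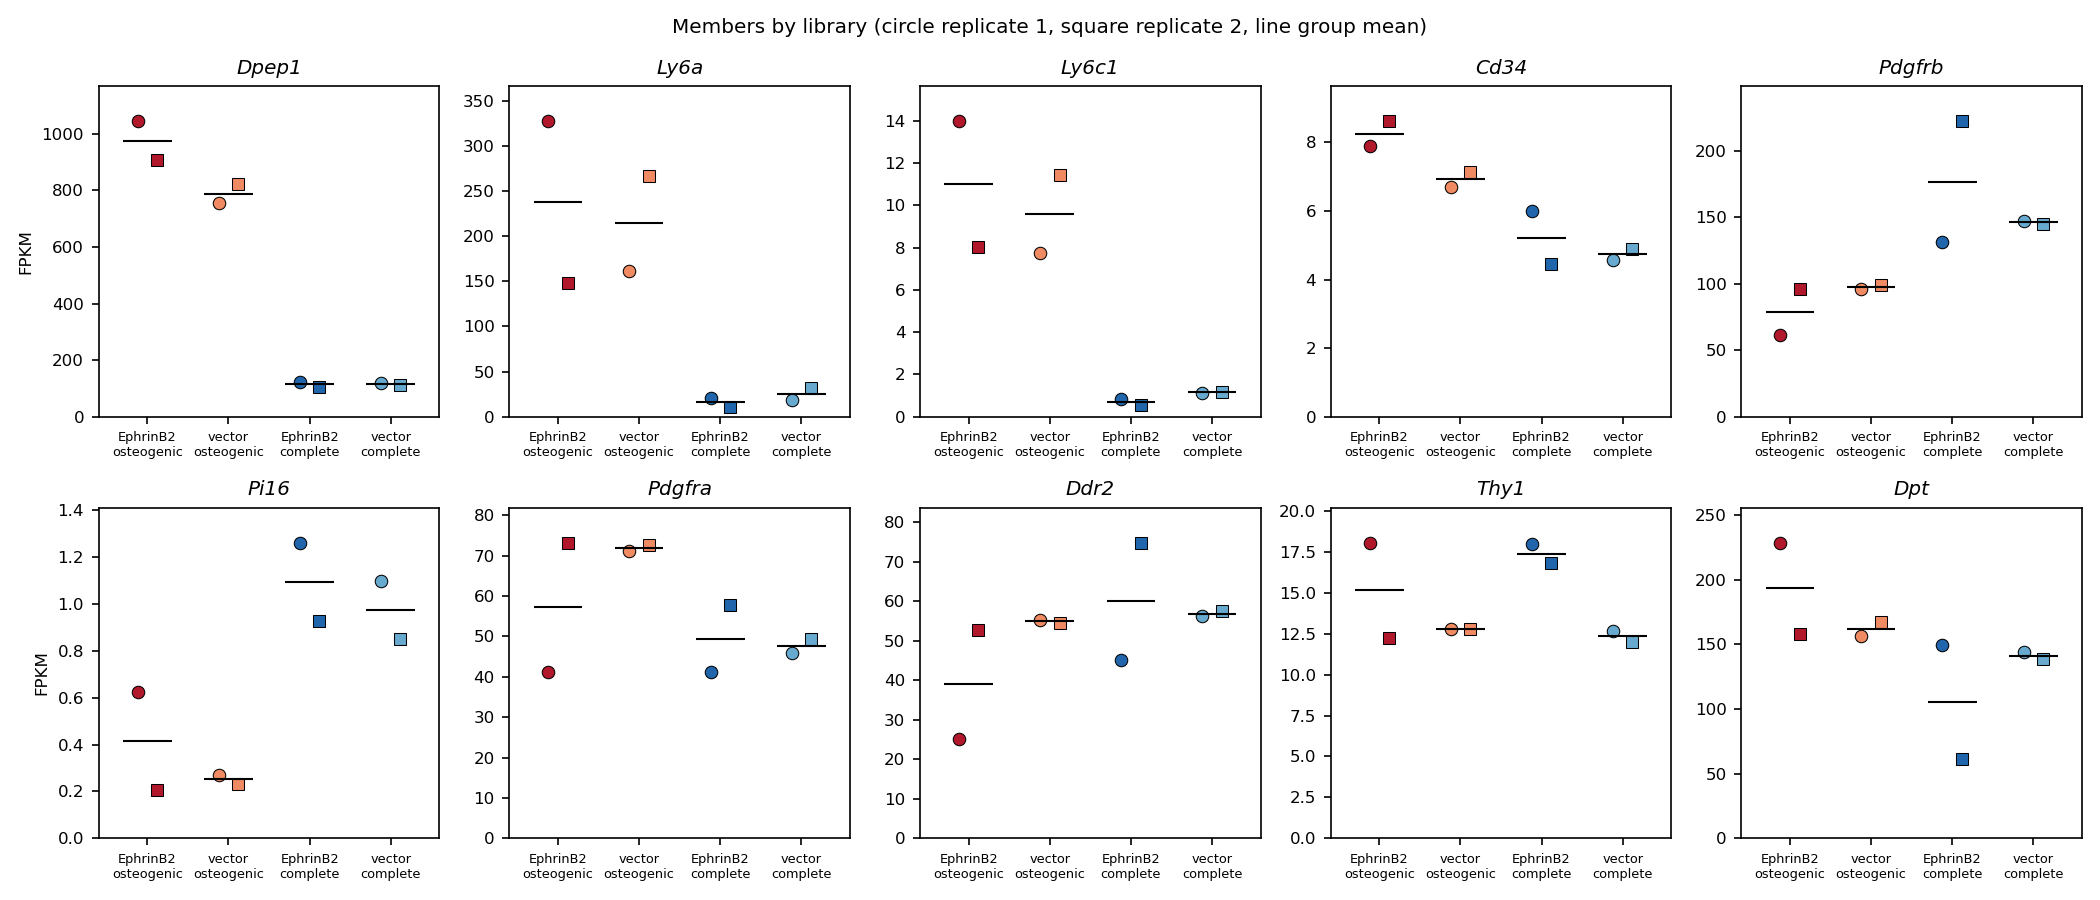
FPKM of each of the 10 genes (vertical axes from 0, each with its own scale) in the 4 groups on the horizontal axis; each point is 1 library, circles replicate 1 and squares replicate 2, and the line is the group mean. Dpep1, Ly6a, Ly6c1, Cd34 and Dpt have all 4 osteogenic libraries above all 4 complete medium libraries, and Pdgfrb and Pi16 have them below.

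Facts of the whole set bear on these values. The libraries held 16493963 to 20550770 counted fragments, as estimated from the steps between low FPKM values. Efnb2, the overexpressed gene, had 5.02 and 18.3 FPKM in EphrinB2 and 1.39 and 1.27 FPKM in vector cells in osteogenic medium, and 31.3 and 32.8 FPKM in EphrinB2 and 6.30 and 5.56 FPKM in vector cells in complete medium. Its log2 difference was 2.21 (SE 0.48, adjusted p = 0.567) in osteogenic and 2.26 (SE 0.48, adjusted p = 1) in complete medium. EphrinB2 cells in osteogenic medium, replicate 1, and EphrinB2 cells in complete medium, replicate 2, stood apart from the other libraries in earlier results of these data. The log2 difference between the libraries of a group had an SD over genes of 0.657 and 0.517 in EphrinB2 cells in osteogenic and complete medium, against 0.234 and 0.261 in vector cells. It followed gene length in EphrinB2 cells, with a Spearman correlation across genes of 0.508 and 0.44, against -0.0182 and 0.0372 in vector cells, where genes are not independent replicates.

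The culture held fibroblast genes in every library, and other cell types were checked by fixed marker lists. Col1a1, a chain of type I collagen, lay between 281 and 2087 FPKM. Of the 8 fibroblast markers, 1 rose and 3 fell with osteogenic medium, beside 10.3% and 9.44% of all genes tested. Dcn rose by 1.81 (adjusted p = 0.00197) on the log2 scale. Col1a1 fell by 2.04 (adjusted p = 0.000738), Col1a2 by 1.21 (adjusted p = 0.00123) and Pdgfrb as given below. The 8 macrophage markers were all detected, at a summed 3849 to 7743 FPKM in EphrinB2 cells and 4332 to 4539 FPKM in vector cells in osteogenic medium, against 801 to 1674 FPKM and 1744 to 1997 FPKM in complete medium. With osteogenic medium 7 of the 8 rose averaged over both kinds of cell, beside 10.3% of all genes tested, with 7 in EphrinB2 cells and 4 in vector cells. The T cell marker Cd3g was at 0 in all libraries and Cd3d, Cd2 and Cd3e stayed under 0.1 FPKM, and so did the cardiomyocyte markers Ryr2, Actc1 and Myh6. The T cell marker Lck reached at most 0.124 FPKM. Trac, also of that list, had 0.052 to 0.222 FPKM in osteogenic and 0.571 to 1.36 FPKM in complete medium. It fell by 0.79 on the log2 scale (adjusted p = 0.00877) and passed the filter only through complete medium, where it is high. The 6 cardiomyocyte markers summed to 6.04 to 15.4 FPKM in osteogenic and 0.694 to 0.923 FPKM in complete medium, and the highest of them was Tnnt2 at up to 14.8 FPKM. Of 8 endothelial markers 3 were tested. Tek, at 5.67 to 11 FPKM the highest of them, rose by 0.65 (adjusted p = 0.0177), while Cdh5 at -1.17 (adjusted p = 0.00423) and Pecam1 at -0.57 (adjusted p = 0.0497) fell and passed the filter only through complete medium. The summed 8 mural markers lay between 20.9 and 59.4 FPKM in osteogenic and 60.7 and 105 FPKM in complete medium. Notch3 made up most of each sum, at 15.5 to 55.1 FPKM in osteogenic and 51 to 98.2 FPKM in complete medium. Mcam, Cspg4 and Rgs5 were also lower in osteogenic medium, Des overlapped, and Higd1b, Kcnj8 and Abcc9 were higher there, at up to 1.49 FPKM. Of 4 mesothelial markers tested, Msln rose by 2.22 (adjusted p = 0.000189) and passed the filter only through osteogenic medium, while Upk3b fell by 0.73 (adjusted p = 0.0228) and Lrrn4 by 0.83 (adjusted p = 0.0276). Leaving out any 1 vector library ended the calls of Tek, Pecam1 and Lrrn4, and that of Upk3b was lost for 3 of these 4 libraries and for either EphrinB2 library in complete medium. The summed B cell markers reached at most 0.343 and the Schwann cell markers at most 1.5 FPKM. In such bulk RNA, fewer cells of a type and less RNA per cell cannot be told apart. The part of other cell types in the results below was not tested.

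The main comparison asked how the members differed between osteogenic and complete medium. Averaged over both kinds of cell, Dpep1, Ly6a, Ly6c1 and Cd34 rose, Pdgfrb and Pi16 fell, and Pdgfra, Ddr2, Thy1 and Dpt did not pass the test. The increases were 7.66 times for Dpep1, 10.9 times for Ly6a, 11 times for Ly6c1 and 1.52 times for Cd34, as ratios of mean FPKM, while Pdgfrb and Pi16 stood at 0.547 and 0.323 of their level in complete medium. Thus 6 of the 10 members were called (4 rose, 2 fell), beside 19.8% of the 12994 genes tested (10.3% risen, 9.44% fallen). Pi16 reached the minimum of 1 FPKM in 2 libraries only through complete medium, where it is high. The filter thus favoured a fall, and the call of Pi16 adds nothing to that count or to any count of called members below that includes it. The median log2 difference of the members was 0.45, beside 0.01 for all genes tested. Called means an adjusted p under 0.05 in limma's moderated test on log2(FPKM + 1), with Benjamini-Hochberg adjustment over all genes tested, and every log2 difference below uses this scale, on which changes of low genes appear too small.

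Dpep1, the dipeptidase, had 1043 and 906 FPKM in EphrinB2 cells and 754 and 820 FPKM in vector cells in osteogenic medium, against 124 and 105 FPKM and 119 and 112 FPKM in complete medium. Every osteogenic library lay far above every complete medium library, and within osteogenic medium both EphrinB2 libraries lay above both vector libraries. The level averaged 881 ± 125 FPKM in osteogenic and 115 ± 8.4 FPKM in complete medium (SD, n = 4 each). The log2 difference was 2.92 (SE 0.13, adjusted p = 4.62e-05), and it stayed between 2.86 and 2.98 when any 1 library was left out. Dpep1 was called in each of the 3 medium comparisons under every alternative run. In complete medium the EphrinB2 and vector libraries overlapped.

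Ly6a, whose product Sca-1 marks several stem and stromal cells in the mouse, had 327 and 148 FPKM in EphrinB2 cells and 161 and 267 FPKM in vector cells in osteogenic medium, against 21.3 and 11.2 FPKM and 18.2 and 32 FPKM in complete medium. The media did not overlap, but libraries of the same group differed widely, and neither kind of cell stood above the other in either medium. Its log2 difference was 3.40 (SE 0.36, adjusted p = 0.00121). Ly6c1, the neighbouring gene of the same family, had 14 and 8.01 FPKM in EphrinB2 cells and 7.76 and 11.4 FPKM in vector cells in osteogenic medium, against 0.834 and 0.578 FPKM and 1.15 and 1.19 FPKM in complete medium. The low levels correspond to an estimated 16 to 37 reads a library, against 252 to 481 in osteogenic medium, with counting error only. Its log2 difference was 2.52 (SE 0.20, adjusted p = 0.000349), and again no library of one medium reached the other.

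The levels of both Ly6 genes kept a like ratio within libraries. Ly6c1 amounted to 3.71% to 6.28% of the Ly6a level in the 8 libraries, while Ly6a itself spanned 29.3 times. Both had their highest level in EphrinB2 cells in osteogenic medium, replicate 1, and their lowest in EphrinB2 cells in complete medium, replicate 2, which are the libraries that stood apart. Without these libraries the log2 difference of Ly6a was 2.89 (adjusted p = 0.00261). Because 195 of the 1297 stretches of Ly6a are shared with Ly6c1, part of their reads may have been split between them, and this was not tested.

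Cd34 had 7.89 and 8.61 FPKM in EphrinB2 cells and 6.71 and 7.13 FPKM in vector cells in osteogenic medium, against 5.99 and 4.44 FPKM and 4.58 and 4.89 FPKM in complete medium. The media did not overlap, and the lowest osteogenic library lay just above the highest complete medium library. The level averaged 7.58 ± 0.839 FPKM in osteogenic and 4.97 ± 0.701 FPKM in complete medium (SD, n = 4 each). The log2 difference was 0.52 (SE 0.11, adjusted p = 0.0205), and 0.46 (adjusted p = 0.00316) without the libraries that stood apart.

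Pdgfrb, the beta receptor, had 61.7 and 96.3 FPKM in EphrinB2 cells and 96.3 and 99.2 FPKM in vector cells in osteogenic medium, against 132 and 222 FPKM and 147 and 145 FPKM in complete medium. All osteogenic libraries lay below all complete medium libraries, and the most extreme values on both sides came from the libraries that stood apart. The log2 difference was -0.86 (SE 0.22, adjusted p = 0.0363), and without those libraries it was -0.51 (adjusted p = 0.00082). Leaving out only EphrinB2 cells in complete medium, replicate 2, or only EphrinB2 cells in osteogenic medium, replicate 1, gave -0.67 and -0.70, which were not called. Pi16 had 0.622 and 0.208 FPKM in EphrinB2 cells and 0.272 and 0.233 FPKM in vector cells in osteogenic medium, against 1.26 and 0.928 FPKM and 1.10 and 0.849 FPKM in complete medium. These are low levels, roughly 26 to 81 reads in osteogenic and 97 to 155 reads in complete medium, and the media did not overlap. For Pi16, alone among the members, the merged exon length did not give whole reads, such as 33.52 in vector cells in osteogenic medium, replicate 1. The deposited Pi16 values may thus rest on another length, and its read numbers are rough. The log2 difference was -0.61 (SE 0.14, adjusted p = 0.0276), and leaving out EphrinB2 cells in complete medium, replicate 1, gave -0.56, which was not called.

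The other 4 members were not called. Pdgfra, the alpha receptor, had 41.2 and 73.1 FPKM in EphrinB2 cells and 71.2 and 72.5 FPKM in vector cells in osteogenic medium, against 41.1 and 57.7 FPKM and 46.0 and 49.3 FPKM in complete medium. The vector libraries separated by medium, whereas the EphrinB2 libraries overlapped. Its log2 difference was 0.38 (SE 0.21, adjusted p = 0.26), and it was called at 0.70 (adjusted p = 0.000632) without the libraries that stood apart and at 0.55 (adjusted p = 0.0107) with the trend on gene length removed. Leaving out EphrinB2 cells in osteogenic medium, replicate 1, alone gave a called 0.58.

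Ddr2, the collagen receptor, had 25.2 and 52.6 FPKM in EphrinB2 cells and 55.2 and 54.6 FPKM in vector cells in osteogenic medium, against 45.2 and 74.7 FPKM and 56.1 and 57.4 FPKM in complete medium. The media overlapped through EphrinB2 cells, and the vector libraries spanned only 54.6 to 57.4 FPKM. Its log2 difference was -0.35 (SE 0.26, adjusted p = 0.397), and it was 0.08 without the libraries that stood apart. Leaving out EphrinB2 cells in osteogenic medium, replicate 2, gave a called -0.61.

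Dpt, the gene of dermatopontin, had 228 and 158 FPKM in EphrinB2 cells and 157 and 167 FPKM in vector cells in osteogenic medium, against 149 and 61.6 FPKM and 144 and 138 FPKM in complete medium. The media did not overlap, and the lowest value came from EphrinB2 cells in complete medium, replicate 2, which stood apart. Its log2 difference was 0.59 (SE 0.29, adjusted p = 0.207), against 0.14 (adjusted p = 0.0647) without the libraries that stood apart. It was called at 0.90 without EphrinB2 cells in complete medium, replicate 1. Thy1 had 18.1 and 12.3 FPKM in EphrinB2 cells and 12.8 and 12.8 FPKM in vector cells in osteogenic medium, against 18 and 16.8 FPKM and 12.7 and 12 FPKM in complete medium. The media overlapped, and the log2 difference was -0.08 (SE 0.14, adjusted p = 0.715). It was a called -0.24 without the libraries that stood apart.

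Ordered by group mean, Dpep1, Ly6a, Ly6c1 and Dpt ran from EphrinB2 osteogenic over vector osteogenic and vector complete to EphrinB2 complete. The neighbours within osteogenic medium overlapped for Ly6a, Ly6c1 and Dpt, and those within complete medium for Dpep1, Ly6a and Dpt. Pdgfrb and Ddr2 ran the other way, from EphrinB2 complete over vector complete and vector osteogenic to EphrinB2 osteogenic. Their complete medium groups overlapped. The EphrinB2 means include the libraries that stood apart. In osteogenic medium, EphrinB2 replicate 2 lay below the vector mean for Ly6a (148 against 214), Ly6c1 (8.01 against 9.6) and Dpt (158 against 162). It lay above that mean for Dpep1 (906 against 787 FPKM). In complete medium, EphrinB2 replicate 1 lay below the vector mean for Pdgfrb (132 against 146) and Ddr2 (45.2 against 56.8). It lay above that mean for Dpt (149 against 141) and Dpep1 (124 against 116).

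Counting separation instead of the test, 5 members had all 4 osteogenic libraries above all 4 complete medium libraries, beside 15.9% of all genes tested, and 2 had them below, beside 16.8%. One of this pair is Pi16, which passed the filter only through complete medium, where it is high. The other, Pdgfrb, is therefore the only one that this count adds. Leaving out any 1 of the 4 vector libraries left 3 members called, Dpep1, Ly6a and Ly6c1. The share of all genes called then also fell, to 9.41% and 9.21% without vector cells in osteogenic medium, replicate 1 or 2, and to 9.57% and 9.68% without vector cells in complete medium, replicate 1 or 2. Without both libraries that stood apart 8 members were called, beside 48.2% of all genes, with 1 library in each EphrinB2 group assumed to vary like the others.

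**Figure D2:**
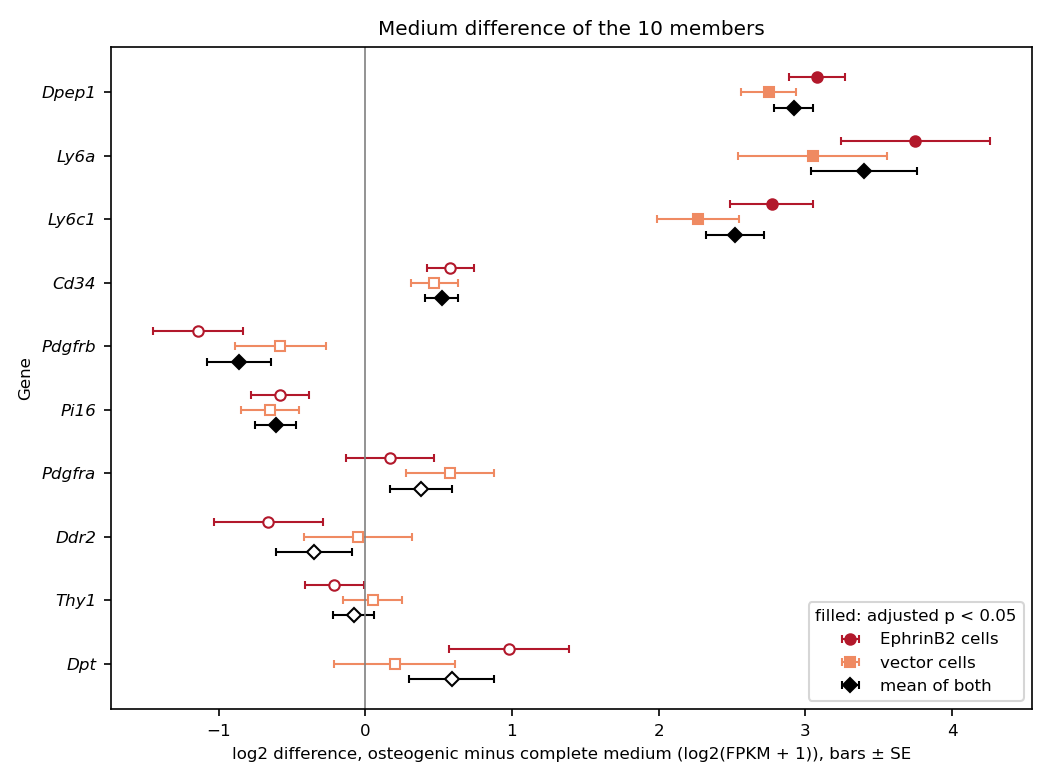
Log2 difference of each of the 10 genes between osteogenic and complete medium (horizontal axis, log2(FPKM + 1) scale) in EphrinB2 cells, in vector cells and as the mean of both; bars are the standard error and filled symbols have an adjusted p under 0.05. Dpep1, Ly6a and Ly6c1 lie above 2 in each comparison, while the other members lie between -1.14 and 0.98.

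Within EphrinB2 cells, 3 of the 10 members rose with osteogenic medium and 0 fell, beside 11.8% of all genes tested (6.36% risen, 5.44% fallen). The log2 differences were 3.08 for Dpep1 (SE 0.19, adjusted p = 0.000363), 3.75 for Ly6a (SE 0.51, adjusted p = 0.00623) and 2.77 for Ly6c1 (SE 0.28, adjusted p = 0.002). Pdgfrb at -1.14 (SE 0.31, adjusted p = 0.0623) and Cd34 at 0.58 (SE 0.16, adjusted p = 0.0646) came next. Without EphrinB2 cells in complete medium, replicate 1, 6 members were called, beside 13.6% of all genes. Without EphrinB2 cells in osteogenic medium, replicate 2, 5 were called, beside 43.8% of all genes. Without both libraries that stood apart 8 were called, beside 29.7% of all genes.

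Within vector cells, the same 3 members rose and 0 fell, beside 7.52% of all genes tested (4.41% risen, 3.11% fallen). Dpep1 differed by 2.75 (SE 0.19, adjusted p = 0.000601), Ly6a by 3.05 (SE 0.51, adjusted p = 0.0158) and Ly6c1 by 2.27 (SE 0.28, adjusted p = 0.00498) on the log2 scale. Leaving out any 1 vector library kept Dpep1 called, but of the other members only Ly6c1 passed, and only without vector cells in osteogenic medium, replicate 1. Of all genes, 1.6% and 1.3% were called without vector cells in osteogenic medium, replicate 1 or 2, and 1.49% and 1.47% without vector cells in complete medium, replicate 1 or 2. With the 4 vector libraries alone in the fit, whose partners lay close, 8 members were called, beside 40.6% of all genes tested (18.5% higher, 22.1% lower). These were Dpep1, Ly6a, Ly6c1, Cd34, Pdgfra at 0.58 and Dpt at 0.20, which were higher, and Pdgfrb at -0.58 and Pi16 at -0.65, which were lower in osteogenic medium. Ddr2 at -0.05 (adjusted p = 0.386) and Thy1 at 0.05 (adjusted p = 0.486) did not pass there either.

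The PDGF receptors were set against each other within each library, a ratio chosen after the values were seen and given with no test. Pdgfra amounted to 0.668 and 0.760 of the Pdgfrb level in EphrinB2 cells and 0.739 and 0.731 in vector cells in osteogenic medium, against 0.312 and 0.260 and 0.312 and 0.340 in complete medium. The ratio of each library that stood apart lay near that of its partner. Of 5 genes for PDGF ligands and a receptor-like protein, 1 rose and 3 fell, beside 10.3% and 9.44% of all genes tested. Their median log2 difference was -0.43. Pdgfd, whose product binds the beta receptor, had 16.8 and 20.5 FPKM in EphrinB2 cells and 20.4 and 20.4 FPKM in vector cells in osteogenic medium, against 35.6 and 36.4 FPKM and 32.4 and 33.8 FPKM in complete medium. It fell by 0.80 on the log2 scale (SE 0.11, adjusted p = 0.00372). Pdgfrl, a receptor-like gene, fell by 0.96 (adjusted p = 0.0172) and Pdgfb, whose product binds both receptors, by 0.43 (adjusted p = 0.0362). Pdgfc, whose product binds the alpha receptor, rose by 0.63 (SE 0.10, adjusted p = 0.00626) at levels of at most 2.33 FPKM. It passed the filter only through osteogenic medium, where it is high, so its call adds nothing to the count of those that rose. Pdgfrl and Pdgfb were no longer called when any 1 vector library was left out.

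EphrinB2 and vector cells were then compared within each medium. The overexpressed Efnb2 itself was not called, at log2 differences of 2.21 in osteogenic and 2.26 in complete medium. A member that was not called is therefore not shown to be unchanged. In osteogenic medium 0 of the 10 members passed limma's test, beside 0% of all genes tested, and 0 members and 441 genes had an unadjusted p under 0.05. Dpep1 and Cd34 had both EphrinB2 libraries above both vector libraries, beside 25.6% of all genes, with log2 differences of 0.31 (SE 0.19) and 0.22 (SE 0.16). Pdgfrb and Ddr2 had them below, beside 22.3% of all genes, with -0.34 (SE 0.31) and -0.58 (SE 0.37), and the adjusted p of these 4 genes lay between 0.567 and 0.594. For Pdgfrb the separation was nearly a tie, with EphrinB2 replicate 2 at 96.27 FPKM and vector replicate 1 at 96.28 FPKM. Without the libraries that stood apart Pdgfrb differed by -0.02 and Ddr2 by -0.06. Leaving out EphrinB2 cells in osteogenic medium, replicate 2, called 1 member, Thy1 at 0.47, beside 21.1% of all genes.

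In complete medium 0 of the 10 members passed limma's test, beside 0.0077% of all genes tested (1 gene), and 0 members and 167 genes had an unadjusted p under 0.05. Thy1 had 18 and 16.8 FPKM in EphrinB2 cells, against 12.7 and 12 FPKM in vector cells. Both EphrinB2 libraries lay above both vector libraries, as they did for 14.3% of all genes, and the log2 difference was 0.46 (SE 0.20, adjusted p = 1). Ly6c1 had both EphrinB2 libraries below, as 11.5% of all genes did, at -0.35 (SE 0.28, adjusted p = 1). Averaged over both media, 0 members passed, beside 0% of all genes, and Thy1 alone had an unadjusted p under 0.05, at a log2 difference of 0.34 (SE 0.14, adjusted p = 0.889). Its EphrinB2 library in osteogenic medium, replicate 2, lay at 12.3 FPKM among the vector libraries, and without that library Thy1 was called at 0.47, beside 3.06% of all genes. The interaction, which tests whether the medium difference itself differed between EphrinB2 and vector cells, called 0 members, beside 0% of all genes, with adjusted p of 0.746 to 0.913, and 0 members and 214 genes had an unadjusted p under 0.05.

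The spread between partners was itself uneven among the members. In EphrinB2 cells in osteogenic medium, replicate 2 exceeded replicate 1 by 1.04 for Ddr2, 0.81 for Pdgfra and 0.63 for Pdgfrb on the log2 scale, genes with merged exons of 9264, 10024 and 5478 bases. It lay below replicate 1 for Ly6a at -1.14, Ly6c1 at -0.73 and Dpt at -0.53, with 1205, 1677 and 1724 bases. In complete medium the EphrinB2 libraries differed likewise, by 0.75 for Pdgfrb, 0.71 for Ddr2 and 0.48 for Pdgfra, and by -1.26 for Dpt and -0.87 for Ly6a. Long members were thus higher in replicate 2 and short ones in replicate 1, apart from Pi16 and Cd34, whose exons are of 6364 and 7290 bases and which differed by -0.43 to 0.11. For Pi16 this length did not give whole reads, so it is uncertain. In vector cells every difference lay between -0.18 and 0.12 except Ly6a at 0.72 and 0.78 in osteogenic and complete medium and Ly6c1 at 0.50 in osteogenic medium. The part of this length trend in the medium and EphrinB2 differences was not tested beyond the alternative that removes it, under which Pdgfra rose and Pi16, at -0.56 (adjusted p = 0.0698), was no longer called.

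**Figure D3:**
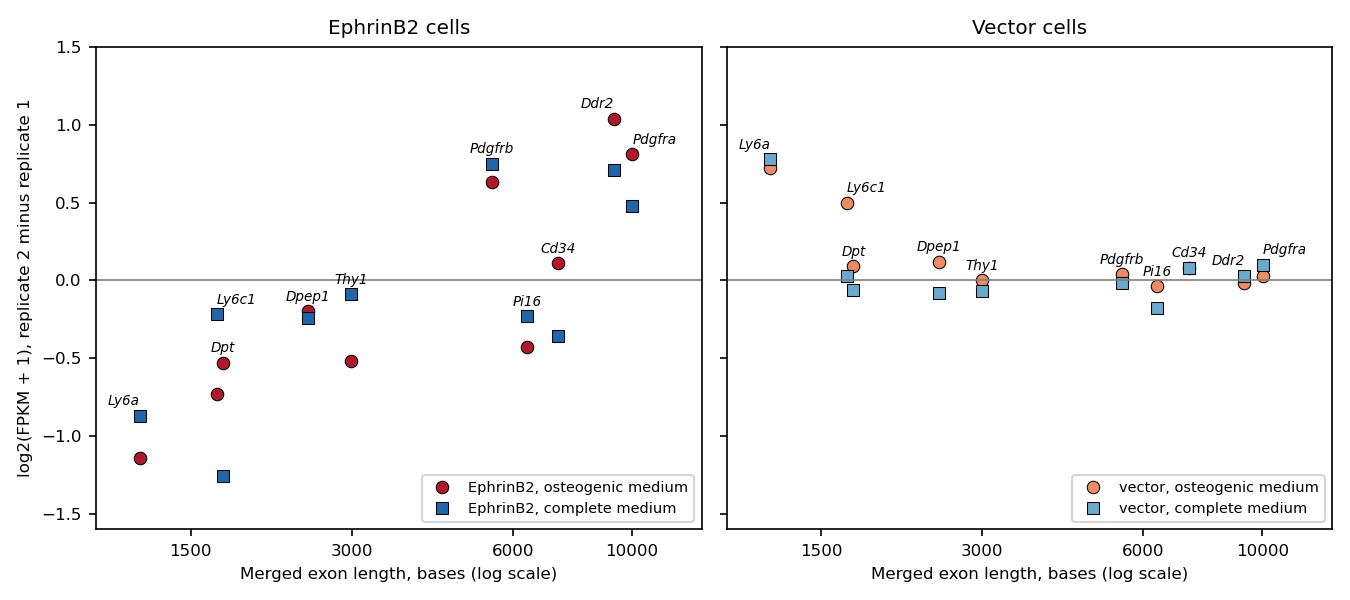
Log2 difference between replicate 2 and replicate 1 of the same group (vertical axis) against merged exon length in bases (horizontal axis, log scale) for the 10 genes, in EphrinB2 cells and in vector cells. In EphrinB2 cells the points run from -1.26 and -1.14 among the short genes to 1.04 at Ddr2, and in vector cells all lie between -0.18 and 0.12 apart from Ly6a and 1 point of Ly6c1.

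Ly6a differed between vector partners, where most members did not. Ly6e, another gene of the cluster on the same chromosome, had 165 and 78.2 FPKM in EphrinB2 cells and 92.9 and 161 FPKM in vector cells in osteogenic medium, against 32.8 and 27 FPKM and 21.7 and 42.1 FPKM in complete medium. It rose with osteogenic medium by 1.94 (SE 0.33, adjusted p = 0.0085), and its partners differed in the same direction as those of Ly6a in every group. Ly6a is known as an interferon-responsive gene, so 10 interferon-stimulated genes are given beside it. Replicate 2 exceeded replicate 1 in 10 of these 10 genes in both vector groups, with a median log2 difference of 0.80 in osteogenic and 1.76 in complete medium. In EphrinB2 cells it did so in 2 of 10 in osteogenic medium (median -0.81) and in 8 of 10 in complete medium (median 1.23), where Ly6a went the other way at -0.87. With osteogenic medium 0 of the 10 rose or fell, with a median of -0.37. Of the 11 genes of the Ly6 cluster listed, 3 could be tested and 2 rose, beside 10.3% of all genes tested. These were Ly6e, given above, and Ly6k at 0.87 (adjusted p = 0.00496). Ly6c2, the near-identical copy of Ly6c1, stayed at or under 0.16 FPKM.

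**Figure D4:**
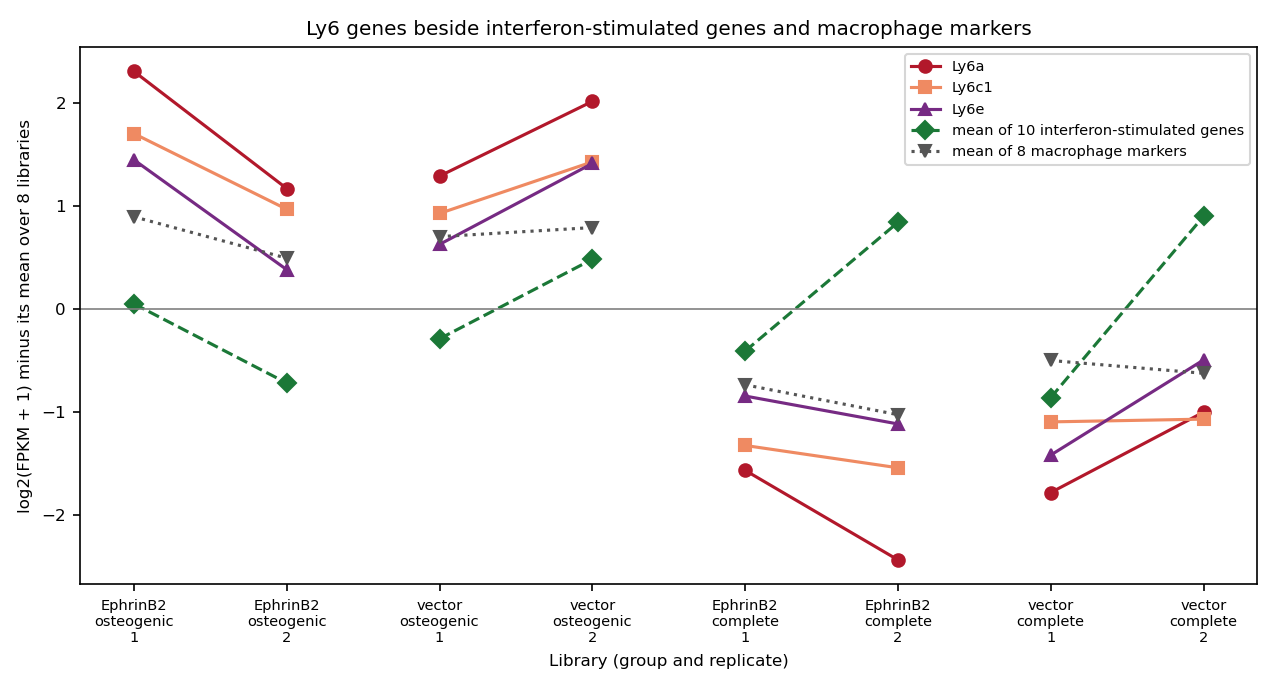
Log2(FPKM + 1) minus its mean over the 8 libraries (vertical axis) for Ly6a, Ly6c1, Ly6e, the mean of 10 interferon-stimulated genes and the mean of the macrophage markers, with lines joining the libraries of a group (horizontal axis). The macrophage mean leaves out Csf1r, although the legend names 8 markers. The Ly6 genes and macrophage markers lie above 0 in all osteogenic and below 0 in all complete medium libraries, whereas the interferon-stimulated genes lie on both sides in each medium.

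Other fibroblast genes, in lists set without regard to how they moved but with earlier results of these data known, were described by counts. The counts are of the averaged medium comparison, beside 10.3% risen, 9.44% fallen and a median of 0.01 for all genes tested. Genes are named by smallest p, so their directions need not mirror the counts. Of 18 further adventitial fibroblast genes, 15 were tested, 4 rose and 6 fell, with a median of 0.16. Ackr3 among them passed the filter only through complete medium, where it is high, at 2.97 to 4.42 FPKM against at most 1.05 FPKM. Ace, the angiotensin-converting enzyme, rose by 3.58 (SE 0.16, adjusted p = 4.62e-05) and Igfbp6, which binds insulin-like growth factors, by 3.86 (SE 0.25, adjusted p = 0.000189). Cd55, a complement regulator, rose by 1.10, and Cd248, a surface glycoprotein of stromal cells also called endosialin, fell by 1.63 (SE 0.11, adjusted p = 0.000196).

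Of 18 genes of resting fibroblast matrix and transcription, all tested, 9 rose and 2 fell, with a median of 1.01. Meox1 among them passed the filter only through complete medium, where it is high, at 1.41 to 2.49 FPKM against at most 0.326 FPKM. Gsn, which severs actin filaments, had 4349 and 3494 FPKM in EphrinB2 cells and 3253 and 3510 FPKM in vector cells in osteogenic medium, against 178 and 145 FPKM and 202 and 177 FPKM in complete medium. It rose by 4.37 (SE 0.15, adjusted p = 1.96e-05). Htra3, a secreted serine protease, rose by 3.39, Scara5, a ferritin receptor, by 3.21 and Osr1, a transcription factor, by 1.48, with adjusted p from 1.96e-05 to 0.000293. Of 14 genes of activated fibroblasts, 0 rose and 11 fell, with a median of -1.07. Cthrc1, a secreted protein of matrix-producing fibroblasts, fell by 3.61 (SE 0.20, adjusted p = 9.77e-05) and Postn, which encodes periostin, by 2.28 (SE 0.13, adjusted p = 0.000109). Col3a1, the chain of type III collagen, fell by 1.77 and Itga11, a collagen-binding integrin subunit, differed by -2.63.

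Among 13 relatives of the members, 7 were tested, 2 rose and 3 fell, beside 10.3% and 9.44% of all genes tested, with a median of -0.48. Glipr1 rose by 0.94 and Glipr2 fell by 1.57, both of the CAP family of Pi16. Csf1r, the receptor for the macrophage growth factor CSF-1 and also a macrophage marker here, rose by 1.26. Podxl2, a sialomucin related to Cd34, fell by 0.57 (adjusted p = 0.0228), a call lost when any 1 vector library was left out. It passed the filter only through complete medium, where it is high, so its call adds nothing to the 3 that fell.

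For each member the 2 genes with the most similar profile were named, by Pearson's r of log2(FPKM + 1) over the 8 libraries among 9371 genes. All points share the 8 libraries, the change of medium and the libraries that stood apart, so these values are a description with no test. Dpep1 was most like Smoc2 and Eepd1 (r = 0.999 each), Ly6a was most like Plpp6 (0.995) and C1ra (0.993), and Ly6c1 was most like Ccl6 (0.995) and Fcna (0.994). Ccl6, a chemokine, had 193 and 114 FPKM in EphrinB2 cells and 124 and 137 FPKM in vector cells in osteogenic medium, against 16.6 and 12.6 FPKM and 23.5 and 20.7 FPKM in complete medium. Like Ly6c1, it separated the media and was higher in replicate 1 than in replicate 2 of both EphrinB2 groups.

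Pdgfrb was most like Ski and Adgra2 and Ddr2 most like Ralgapb and Kif1b (r = 0.999 each), and Pdgfra was most like Ppp1r12b (0.998) and Thsd7a (0.995). Pi16 was most like Lsp1 (0.992) and Myl4 (0.987), and Dpt was most like Hnrnpdl (0.991) and Tepsin (0.987). The best matches of Cd34, Ranbp9 (0.970) and Ppp1r2 (0.969), and of Thy1, Gtpbp4 (0.950) and Anp32e (0.928), were the weakest. Among the members themselves, Ly6a, Ly6c1 and Dpep1 had r of 0.97 to 0.99 with each other, and each had r of -0.92 to -0.87 with Pdgfrb. Pdgfra and Pdgfrb had r of -0.05, and Thy1 had no r above 0.49 with any member.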

How the data were processed

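Per the labels' protocols, Trizol was used to obtain total RNA. The authors deposited FPKM values. The submitters' processing notes name, with no order or role, the build mm10 and the tools featureCounts 1.5.0-p3, HISAT2 2.0.5, DESeq2 1.16.1 and CASAVA. Filters, strand setting and annotation release are not given in the sources. Of 54532 identifiers, 54495 had a symbol in GENCODE M21 or the gene name table. FPKM times merged exon length gave whole reads, within 0.02, for 98.1% to 98.3% of genes under 50 reads, which gave the depth.

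Genes with at least 1 FPKM in at least 2 libraries were tested (12994) on log2(FPKM + 1) with limma 3.58.1 (R 4.3.3), two-sided, with a mean-variance trend, a mean per group and 1 spread from all 8 libraries (4 residual degrees of freedom, prior 2.72). Benjamini-Hochberg adjustment covered all tested genes, and the threshold was 0.05. Steps were tested on simulated data.

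Libraries were numbered within groups in listed order. The members, lists and motifs were chosen with earlier results of these data known. Named were all members, Efnb2, up to 4 genes of each list by smallest p, and for each member the 2 most similar genes with a mean of at least 2 FPKM. Alternatives were a pseudocount of 0.1, no filter, a mean of at least 5 FPKM, median ratio scaling, the trend on gene length removed, only the groups compared, and libraries left out. Read numbers carry counting error only, and those of Pi16 are rough.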

Additional observations from a re-analysis of the deposited data

How the results depend on the processing

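No paired analysis was possible because the labels give no replicate number, batch or animal shared between groups. The number of members called with osteogenic medium in vector cells was 3, and 8 with only the groups compared or without both libraries that stood apart, while leaving out 1 library gave 1 to 3. In EphrinB2 cells it was 3, and 5 with the trend on gene length removed, 8 without both libraries that stood apart and 3 to 6 with 1 library left out. Averaged over both kinds of cell it was 6, and 3 to 7 with 1 library left out. For EphrinB2 against vector cells in osteogenic medium and averaged over both media, it was 0 to 1 with 1 library left out. The other alternatives kept each count within 1.5 times. With no filter on low values Pdgfrb averaged over both kinds of cell and Ly6a in vector cells were no longer called, and the mean of at least 5 FPKM left out Pi16.

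Dpep1, Ly6a and Ly6c1 kept their direction in each medium comparison under every alternative run. Without both libraries that stood apart the sign turned for Ddr2 with osteogenic medium, to 0.22 in EphrinB2 cells and 0.08 averaged, and for Thy1 between EphrinB2 and vector cells in osteogenic medium, to -0.06. With 1 library left out the log2 difference in EphrinB2 cells ran from -0.24 to 0.58 for Pdgfra and from -0.47 to 0.05 for Thy1, which averaged ran from -0.21 to 0.05. For EphrinB2 in osteogenic medium Thy1 ran from -0.06 to 0.47. The cause was not tested. With 2 libraries a group and lone libraries assumed to vary like the others, small differences were not resolved. Between EphrinB2 and vector cells even that of Efnb2, at 2.21 in osteogenic and 2.26 in complete medium, was not called.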
